A study of Mus musculus with 5 samples.

Results

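The neutrophils of wounded mouse skin described here are 251 of the 16207 cells kept from 3 wounded single-cell libraries, out of 26845 kept cells in all 5 libraries. The members were chosen by measured UMI counts of the same cells. A cell was taken when S100a8 and S100a9, which encode the calprotectin subunits that fill the neutrophil cytosol, together made up at least 50 of every 10000 of its unique molecular identifiers (UMIs, the tags that mark single captured RNA molecules). It also had to hold at least 1 UMI of Csf3r, Cxcr2 or Retnlg, fewer than 10 UMIs per 10000 of the complement genes C1qa, C1qb and C1qc, and fewer than 50 per 10000 of the basal keratins Krt5 and Krt14. Wounded libraries 1, 2 and 3 gave 45, 131 and 75 such cells. The skin came from C57BL/6 mice, with no other strain, allele or drug named in the labels, and all cells had been sorted as live before droplet capture with 10x Genomics 3' chemistry. Wounded skin (3 libraries) was punched to 6 mm at 7 weeks of age, and a disc of 10 mm with the wound was collected 4 days later. Un-wounded skin (2 libraries) was taken for comparison, with no age given. The labels do not say whether libraries came from separate animals, so every p-value below measures only the spread between these libraries, which may be technical.

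Neutrophils are short-lived granulocytes that leave the blood for injured tissue soon after injury. They store antimicrobial proteins in granules that are made stepwise in the bone marrow, sense bacterial peptides, complement fragments and chemokines through receptors on their surface, and produce oxidants with the NADPH oxidase. In skin wounds they are known for clearing microbes and debris and for releasing chemokines and interleukin 1, before macrophages take up their remains.

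The 5 libraries held 33537809 to 59621412 UMIs, with a median of 6096 to 8003.5 UMIs per kept cell. The least deep barcode of each library held 1410 to 2881 UMIs, so shallow barcodes had been removed before deposit, and any neutrophils with less RNA than this are not in the tables. Pairs of libraries shared 26 to 63 barcodes, and 2, 2 and 1 of the neutrophils carried a barcode found in another library. The comparison classes came from the same 3 wounded libraries by fixed gene rules. They were 571 monocytes (101, 148 and 322), which held Lyz2 with Ly6c2, Chil3 or Plac8, and 827 C1q macrophages (158, 161 and 508), which held the C1q genes with Csf1r, Adgre1 or Fcgr1. Monocytes also had to hold Csf1r or Fcgr1, and fewer than 10 C1q UMIs per 10000. Both classes held fewer than 50 UMIs per 10000 of S100a8 and S100a9, and fewer than 50 of Krt5 and Krt14. The S100 level thus separates neutrophils from both classes by choice. Its part in genes that vary with it was not tested. Genes used by any of these rules are given as descriptions with no test.

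No cell of un-wounded skin met the neutrophil rule. The neutrophil share of kept cells was 0.599% in wounded library 1 (exact 95% interval 0.437 to 0.80%), 2.87% in library 2 (2.40 to 3.39%) and 1.82% in library 3 (1.43 to 2.27%). In the un-wounded libraries it was 0 of 5264 and 0 of 5374 cells, which allows shares of up to 0.0570 and 0.0558% (3 counts; these limits and intervals cover counting error only). The mean was 1.76% ± 1.14 (SD, n = 3) in wounded skin, and the groups did not overlap. The exact two-sided permutation test over 10 assignments of libraries gave p = 0.2, since another assignment gave a difference at least as large. With so few assignments no p under 0.05 is possible. The 3 wounded libraries differed among themselves by more than their intervals, so the share varied between libraries beyond counting error. Some members also held RNA of other cell types above limits that are described below. Counting only the members under those limits, the shares were 0.319% (0.205 to 0.475%), 2.26% (1.84 to 2.73%) and 0.776% (0.531 to 1.09%), with a mean of 1.12% ± 1.01 and the same order of libraries. Monocytes and C1q macrophages did not follow the same order, with the highest numbers of both in library 3.

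**Figure D1:**
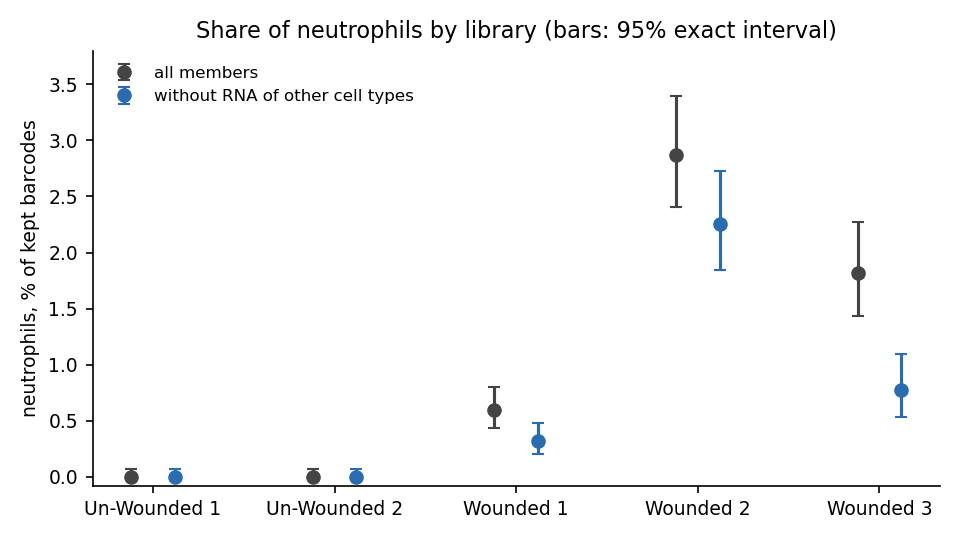
Neutrophils as a percentage of kept cells in each of the 5 libraries, with exact 95% intervals, for all members and for the members under the limits on RNA of other cell types (labelled as without such RNA). The wounded libraries lie at 0.599, 2.87 and 1.82%, and both un-wounded libraries at 0.

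The S100 level that chose the cells spanned a wide range. S100a8 and S100a9 together made up a median of 263, 265 and 229 per 10000 UMIs in the members of libraries 1, 2 and 3, with extremes of 51.5 and 3535. Among the other kept cells of the wounded libraries the median was 0, 1.29 and 1.42 per 10000, and the 99th percentile was 5.43, 36.0 and 13.9. The members just inside the threshold held 51.5, 56.6 and 51.8 per 10000, and the cells just outside held 35.4, 47.3 and 49.1. Library 2 had 24 cells that met every other condition at 25 to 50 per 10000, against 4 and 4 in the others.

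All 6 neutrophil markers were present in the members of every wounded library. Of these 5 are genes of the rule itself, so only G0s2 was not fixed by the choice. Many members also held RNA of another cell type. Of the 251 members, 92 (21, 28 and 43 in libraries 1, 2 and 3) held such RNA above a limit. They held at least 50 UMIs per 10000 of a chosen gene set named next, or at least 3 UMIs of the T cell receptor complex. Collagens accounted for 44 of them, MHC class II genes for 19, the T cell receptor complex for 11, skeletal muscle genes for 7, suprabasal keratins for 5, lymphatic endothelial genes for 4, smooth muscle genes for 3 and globins for 1, with some members in several sets. These 92 had a median of 7071, 7213 and 11945 UMIs, against 2820, 2625 and 3516 for the other 159 (24, 103 and 32). The 6 neutrophil markers summed to 18501, 12539 and 17138 CPM (a gene's UMIs in a class of a library, scaled to the usual fixed total) in the 92, and to 69103, 58725 and 120636 CPM in the 159.

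The 6 fibroblast markers showed the reverse. They summed to 19770, 7290 and 22489 CPM over all members, and to 1289, 1477 and 873 CPM over the 159. Among them Col1a1, Col1a2, Col3a1 and Dcn are the collagen set that was used to leave out members, so this fall was fixed by the choice. Red blood cell markers reached 15780 CPM in all members of library 2, and 156 CPM without those 92. Their Hbb-bs and Hba-a1 are the globin set, which 1 of 131 members of library 2 exceeded, so this fall too was fixed by the choice. Of the eosinophil markers 5, 2 and 4 of 5 were at 0 in the 159 cells, of the mast cell and basophil markers 6, 4 and 4 of 6, and of the endothelial markers 5, 4 and 4 of 5. The C1q macrophage markers, whose C1q genes the rule limits, summed to 265, 278 and 289 CPM there. The 159 were not free of other RNA. Monocyte markers, which the limits did not use, summed to 3131, 2243 and 1088 CPM in them, with 0, 1 and 0 of 7 at 0. Of these, Lyz2 and Plac8 had 76.4 and 76.9% of their UMIs in the 2 highest cells of each library. Keratinocyte markers summed to 1000, 122 and 540 CPM. Because 92 members held RNA above the limits, each result is given for all 251 members and again for the 159, called the restricted members below. That restriction was chosen after the values were seen, and whether the 92 are droplets with several cells was not tested. It was applied to neutrophils only. In C1q macrophages, which were left whole, the 6 fibroblast markers summed to 3847, 2423 and 2139 CPM. The part of such RNA in the calls against restricted members was not tested. Among the highest doublet scores of each library were 13, 14 and 8 of the 92, and 4, 1 and 3 of the 159.

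**Figure D2:**
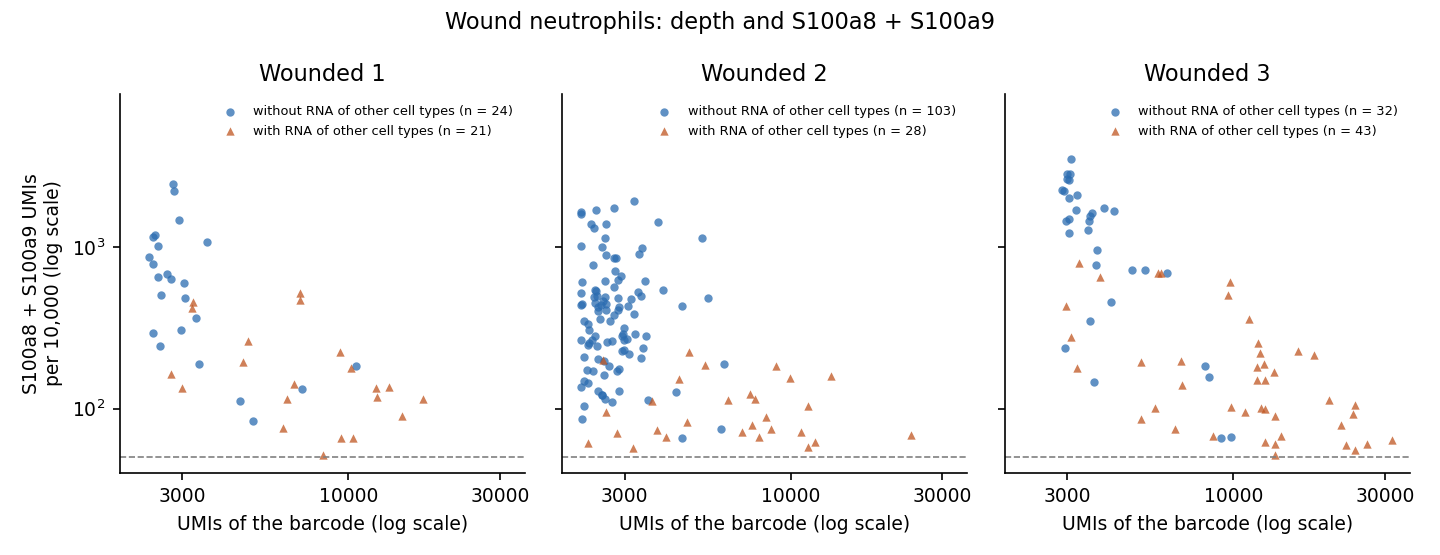
Points are the 251 neutrophils, placed by their total UMIs and by their S100a8 and S100a9 UMIs per 10000 (both axes logarithmic), in 1 panel for each wounded library, with triangles for members holding RNA of other cell types, dots for the others and a dashed line at the threshold of 50. Members holding RNA of other cell types have a median depth of 7071, 7213 and 11945 UMIs, against 2820, 2625 and 3516 for the restricted members, which reach higher S100 levels.

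Neutrophils held a smaller mitochondrial share and fewer different genes than the other 2 classes, most clearly in the restricted members. The median mitochondrial share was 0.410, 0.419 and 0.476% of UMIs in the restricted members, against 2.05, 2.24 and 1.70% in C1q macrophages of the same libraries. In all members it was 1.34, 0.472 and 1.39%, and in monocytes 1.82, 1.97 and 1.45%, so library 3 differed little there. It was 2.23, 2.34 and 1.60% in the 92 members with RNA of other cell types, near the level of the macrophages. With every cell thinned to 1000 UMIs, all members had a median of 489, 406 and 476 genes, and the restricted members 402, 388 and 368. C1q macrophages had 520, 514 and 497 genes at that depth, and monocytes 523, 497 and 487. All members were lower than macrophages in every library, and no test over 3 pairs can give an exact two-sided p under 0.25.

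Summed per library, 1634 of 6226 genes tested (26.2%) differed between neutrophils and C1q macrophages at an adjusted p under 0.05, with 999 higher (16%) and 635 lower (10.2%) in neutrophils. Against monocytes 1339 genes (21.5%) differed, 818 higher (13.1%) and 521 lower (8.37%). For the restricted members 1880 of 5968 genes (31.5%) differed from macrophages, 941 higher (15.8%) and 939 lower (15.7%). From monocytes 1509 (25.3%) differed, 758 higher (12.7%) and 751 lower (12.6%). The 2 sets of members did not call the same genes. Of the genes called higher than in macrophages, 463 were shared. They make up 47.0% of the 986 called in all members, leaving out genes that the restriction used, and 49.2% of the 941 called in the restricted members. In all members 702 genes (11.3%) were higher than in both classes and 344 (5.53%) lower than in both. For the restricted members these were 704 (11.8%) and 606 (10.2%). Without library 1 the counts were 1032 against macrophages and 654 against monocytes, and without library 3 the count against monocytes was 749. With the highest doublet scores removed 1122 and 863 genes differed. The median log2 fold change over all genes was 0.01 against macrophages and 0.02 against monocytes. Among the restricted members it was -0.29 and -0.28. Each list below is to be read beside these medians and beside the shares of all genes called higher or lower. A list given only against macrophages says nothing about monocytes.

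The genes that stood furthest above both other classes included lipid, receptor and skin-protease genes as well as granule genes. G0s2 encodes an inhibitor of the triglyceride lipase ATGL and lies on chromosome 1 (GRCm38 chr1:193272161-193273217, minus strand). G0s2 stood at 2165, 4134 and 1163 CPM in the neutrophils of libraries 1, 2 and 3, against 3.31, 27.7 and 6.34 CPM in monocytes and 3.74, 24.0 and 9.76 CPM in C1q macrophages. The neutrophils were above both classes in every library, and G0s2 was higher than in macrophages by 7.77 ± 0.43 on the log2 scale (SE; adjusted p = 7.81e-06) and by 9.06 ± 0.40 in the restricted members (adjusted p = 1.21e-10). It was broad, with a UMI in 147 of the 159 restricted members. Neutrophils were few, yet they held 32.1, 57.6 and 48.5% of all G0s2 UMIs in the kept cells of the 3 libraries. Their share of all UMIs was 0.431, 1.52 and 1.60%. A G0s2 UMI was found in 86.7, 91.6 and 93.3% of members, and in 13.2, 22.8 and 18.4% of collagen-rich cells, which had median depths of 7080, 6651 and 9564 UMIs.

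Mrgpra2b encodes a Mas-related G-protein-coupled receptor (chr7:47463806-47528862, minus strand). Mrgpra2b stood at 164, 251 and 137 CPM in neutrophils, and at 0, 0 and 0.296 CPM in macrophages. Of all Mrgpra2b UMIs in kept cells, neutrophils held 64.6, 68.9 and 85.0%. Its log2 fold change over macrophages was 9.28 ± 0.46 (adjusted p = 4.12e-06), and it can share reads with its near copy Mrgpra2a, so the split between them is uncertain. Il1f9, also known as Il36g, encodes the interleukin 36 gamma cytokine of epithelia and myeloid cells. Il1f9 stood at 473, 1331 and 255 CPM in neutrophils against 1.25, 6.00 and 2.07 CPM in macrophages, with no overlap. Neutrophils held 34.2, 58.5 and 50.9% of its UMIs, so a substantial part lay outside them.

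Several further genes of this group are less often linked to neutrophils by name. Asprv1, an aspartic protease described in the skin barrier, stood at 528, 640 and 400 CPM in neutrophils and at 0, 7.00 and 4.73 CPM in macrophages. Hdc, which makes histamine from histidine, stood at 1102, 1217 and 649 CPM in neutrophils and at 11.2, 17.0 and 39.4 CPM in macrophages. The 6 mast cell and basophil markers, of cells also known for Hdc, summed to 0, 40.7 and 44.4 CPM in the restricted members, with 6, 4 and 4 of them at 0. Their part in the Hdc level was not tested. Rdh12, a retinol dehydrogenase, was higher than in macrophages by 5.99 ± 0.37 and than in monocytes by 5.31 ± 0.36 (adjusted p = 1.09e-05 and 2.25e-05). H2-Q10, a class Ib MHC gene, was higher by 4.67 ± 0.38 and 5.35 ± 0.41 (adjusted p = 4.47e-05 and 5.35e-05). Wfdc21 encodes a whey acidic protein-type inhibitor and Lrg1 a leucine-rich glycoprotein of granules. Both were higher than in either class, by 6.81 ± 0.41 for Wfdc21 and 5.97 ± 0.72 for Lrg1 against macrophages. All of these genes also passed the test in the restricted members, with larger differences.

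Stefin A genes encode inhibitors of cysteine proteases. In the comparison with macrophages 5 of the 6 tested members of the list of 10 were higher and none lower, with a median log2 fold change of 6.26 when a gene with no macrophage UMI is placed at its lower bound. Stfa2l1 stood at 410, 745 and 216 CPM in neutrophils against 0, 2.00 and 2.66 CPM in macrophages. Gm5483 stood at 668, 813 and 610 CPM against 1.25, 5.0 and 5.62 CPM. Gm5416 had no UMI in macrophages and was at least 72.8-fold higher, against a floor of 3 UMIs over the 3 libraries. Within the restricted members 4 of 5 tested were higher, and Stfa1 could not be tested there, with 0 CPM in library 1 and 200 and 407 CPM in libraries 2 and 3. Of those 4, BC100530 and Gm5416 came from few cells, with 79.3 and 74.0% of their UMIs in the 2 highest cells of each library and 16 and 14 cells with any. These genes are near copies of each other, so counts can be split among them and the value of any single gene is uncertain.

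**Figure D3:**
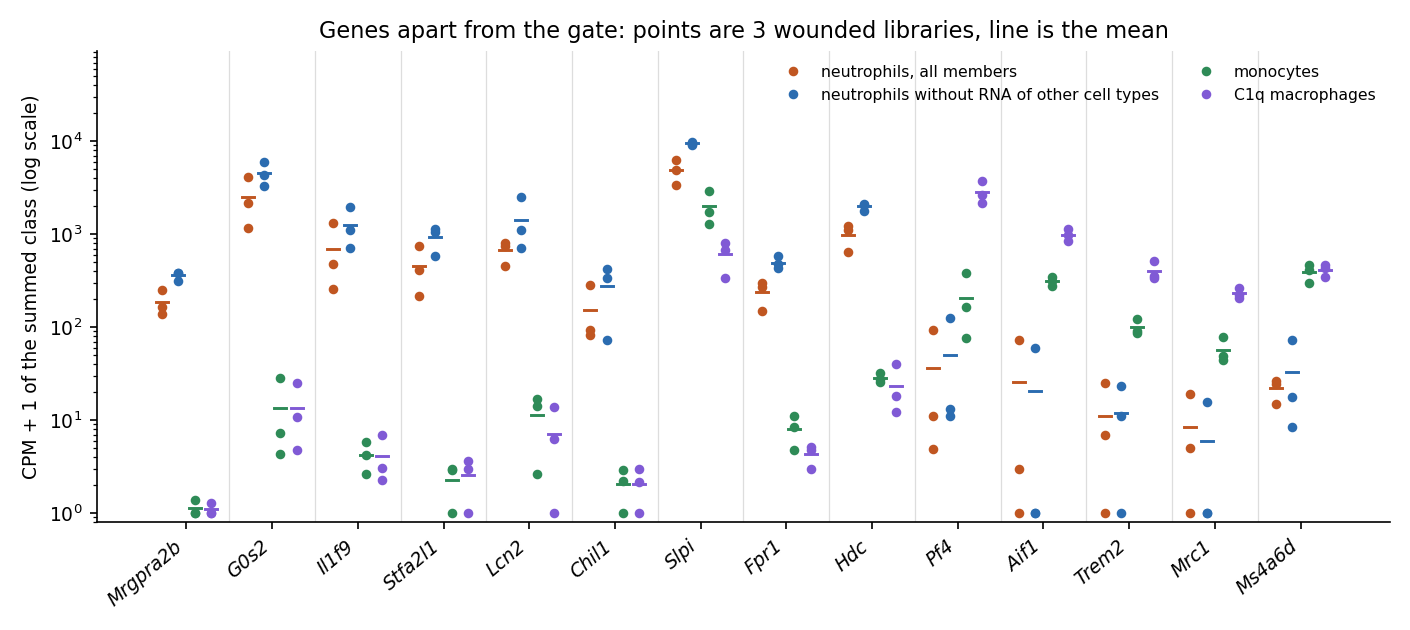
CPM + 1 (logarithmic axis) of genes that stood furthest above or below the other classes, with 1 point for each wounded library and a line at their mean, for all neutrophils, restricted members, monocytes and C1q macrophages. G0s2, at 2165, 4134 and 1163 CPM in neutrophils, stays at or under 27.7 CPM in both other classes, and Pf4 at 3.91, 9.96 and 93.1 CPM lies below macrophages.

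Granule genes were read by the stage at which their proteins are made. None of the 5 primary granule genes (Mpo, Elane, Prtn3, Ctsg and Azu1), made at the promyelocyte stage, passed the filter on low counts. Of the 13 listed genes of secondary and tertiary granules 1, Lyz2, is used by the monocyte rule, 7 were tested against macrophages, and 6 were higher and none lower, with a median log2 fold change of 4.17. In the restricted members 7 of 8 tested were higher, and Anxa1, which encodes an annexin of broad expression, was lower. Against monocytes 4 of 7 were higher, and 6 of 8 in the restricted members.

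Lcn2 encodes lipocalin 2, which binds bacterial siderophores (chr2:32384633-32388252, minus strand). It stood at 453, 751 and 801 CPM in all members and at 710, 1094 and 2502 CPM in restricted members, against 1.66, 13.4 and 15.8 CPM in monocytes and 0, 13.0 and 5.33 CPM in macrophages. Lcn2 was higher than in macrophages by 7.16 ± 0.52 (adjusted p = 2.46e-05), and neutrophils held 15.1, 39.9 and 30.5% of its UMIs. Pglyrp1, a peptidoglycan-binding granule protein, stood at 93.8, 128 and 88.6 CPM in neutrophils, against 13.3, 11.4 and 11.1 CPM in monocytes. Chil1, a chitinase-like granule protein, was higher than in monocytes by 6.93 ± 0.42 (adjusted p = 1.52e-05).

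Slpi encodes the secretory leukocyte protease inhibitor, which restrains neutrophil elastase (chr2:164354070-164389095, minus strand). It stood at 4931, 6304 and 3355 CPM in neutrophils, at 1276, 1733 and 2938 CPM in monocytes and at 335, 809 and 680 CPM in macrophages. The neutrophils were highest in every library, by 3.30 ± 0.39 over macrophages (adjusted p = 0.000294) and 1.49 ± 0.37 over monocytes (adjusted p = 0.0186). The second difference did not pass without library 1 or library 2 (adjusted p = 0.197 and 0.102), and in the restricted members it was 2.74 ± 0.29 (adjusted p = 3.94e-06).

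The metalloproteinase genes were low. Mmp8, the neutrophil collagenase, stood at 35.2, 39.9 and 24.0 CPM, and Mmp9, gelatinase B, at 35.2, 75.7 and 37.6 CPM. Mmp9 was higher than in macrophages by 3.05 ± 0.71 (adjusted p = 0.0109), and without library 3 the adjusted p was 0.0707. Ngp, Camp and Ltf, which encode proteins of secondary granules, came from very few cells. All 111 Ngp UMIs of the restricted members lay in 3 cells, the 57 Camp UMIs in 4 cells and the 23 Ltf UMIs in 3 cells, which were counted after the values were seen.

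Promoters are shown for 3 genes, Slpi of the granule list and Cxcl2 and Cxcl3 of the chemokines described next. For 11 of the 13 granule genes RefSeq gave a promoter, and in the 250 bases before the start 6 of the 11 (Lcn2, Slpi, Mmp8, Ngp, Ltf and Anxa1) held TTGCNNAA, the core of a C/EBP-type site, on either strand. The share over all 27025 promoters was 9.55%. None of the 11 held the core of an NF-kappaB-type site, GGG followed by any 3 bases and TTCC, whose share over all promoters was 4.60%. For 12 of the 16 genes of the cytokine list RefSeq gave a promoter, and 6 of the 12 (Csf1, Il6, Cxcl3, Cxcl1, Cxcl2 and Ccl9) held that core on either strand, and 1 (Il6) held TTGCNNAA. Of the 12 genes named furthest above macrophages 11 had a promoter, and each core was found in 2 of them. These were Pglyrp1 and Lrg1 for the NF-kappaB-type core, and Lcn2 and Rdh12 for TTGCNNAA. Not every listed gene with a match was higher in neutrophils. Ccl9 was lower, Anxa1 was lower in the restricted members, and Ngp and Ltf were not tested. These motifs were chosen after several were searched. A match is a description of the letters and not evidence of binding. The sequences of Cxcl2 (GRCm38.p6 chr5:90903649-90903898, plus strand), Cxcl3 (chr5:90785851-90786100, plus strand) and Slpi (chr2:164356508-164356757, minus strand) are from RefSeq, 5′ to 3′ on the gene's strand. RefSeq's Slpi start lies inside the gene span given above, which reaches further upstream through 1 longer annotated transcript. Capitals mark the NF-kappaB-type matches in Cxcl2 and Cxcl3, of which 2 overlap in each gene, and the TTGCNNAA match in Slpi.
Cxcl2: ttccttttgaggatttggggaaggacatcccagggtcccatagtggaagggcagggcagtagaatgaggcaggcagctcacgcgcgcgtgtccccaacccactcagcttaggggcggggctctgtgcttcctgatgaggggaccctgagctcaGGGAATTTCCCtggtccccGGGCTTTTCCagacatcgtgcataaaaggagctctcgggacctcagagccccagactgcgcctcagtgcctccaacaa
Cxcl3: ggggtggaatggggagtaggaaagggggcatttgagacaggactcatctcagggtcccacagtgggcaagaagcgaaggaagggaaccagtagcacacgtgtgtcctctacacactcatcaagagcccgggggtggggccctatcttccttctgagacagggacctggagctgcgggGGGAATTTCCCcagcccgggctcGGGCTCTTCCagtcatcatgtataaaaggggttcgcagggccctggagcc
Slpi: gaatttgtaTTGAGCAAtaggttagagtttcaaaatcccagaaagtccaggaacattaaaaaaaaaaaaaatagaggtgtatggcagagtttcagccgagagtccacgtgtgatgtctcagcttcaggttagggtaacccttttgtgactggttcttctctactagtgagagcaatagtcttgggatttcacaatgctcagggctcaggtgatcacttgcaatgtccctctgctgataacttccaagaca

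Chemokine and cytokine transcripts were at high levels in neutrophils, but with RNA of other cell types included only part of them differed from macrophages. Of the 16 genes of the list, all tested, 5 were higher (Csf1, Ccl3, Il1a, Il6 and Cxcl3) and 3 lower (Ccl9, Il10 and Ccl4) than in macrophages, with a median log2 fold change of 0.89. For the restricted members 12 were higher and 3 lower, with a median of 2.12. Against monocytes 2 were higher and 4 lower, and 9 and 4 in the restricted members.

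Cxcl2 encodes a ligand of the neutrophil receptor CXCR2 (chr5:90903871-90905938, plus strand). It stood at 21450, 39700 and 6483 CPM in all members, at 13560, 11420 and 17650 CPM in monocytes and at 7844, 10610 and 10670 CPM in macrophages, so library 3 fell below both classes. The difference from macrophages was 1.32 ± 0.55 and did not pass (adjusted p = 0.108). Among the restricted members Cxcl2 stood at 48830, 57040 and 16190 CPM, higher than in macrophages by 2.52 ± 0.42 (adjusted p = 0.000255) and than in monocytes by 1.87 ± 0.42 (adjusted p = 0.00356). Without library 1 the difference from monocytes was 1.71 with an adjusted p of 0.0923. Every member held a Cxcl2 UMI, but so did 58.9, 85.9 and 76.1% of collagen-rich cells. At 1000 UMIs per cell the shares were 100, 100 and 100% of restricted members and 19.1, 32.8 and 26.3% of collagen-rich cells. Neutrophils held 7.19, 21.6 and 2.75% of all Cxcl2 UMIs in kept cells, so most lay in other cells.

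Cxcl3, another CXCR2 ligand, whose gene lies near Cxcl2 (chr5:90786103-90789600, plus strand), stood at 2000, 1799 and 388 CPM in neutrophils and 200, 158 and 553 CPM in macrophages. It was higher by 2.75 ± 0.79 (adjusted p = 0.0286), which did not pass without library 1 or library 2 (adjusted p = 0.242 and 0.197). Within the restricted members it was higher by 3.97 ± 0.57 (adjusted p = 6.28e-05) and passed when any single library was left out. Ccl3, a ligand of CCR1, stood at 5947, 15710 and 2075 CPM against 1308, 2056 and 1083 CPM in macrophages, higher in every library by 2.27 ± 0.39 (adjusted p = 0.0023). Ccl4, its close relative, stood at 3423, 5619 and 1606 CPM against 4829, 10380 and 2904 CPM. Ccl4 was lower by 0.57 on the log2 scale, written -0.57 ± 0.17 (adjusted p = 0.0327), yet the difference turned to 0.87 ± 0.26 in the restricted members (adjusted p = 0.0179). Neither Ccl4 difference passed without library 1 or library 3.

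Il1b encodes interleukin 1 beta (chr2:129364570-129371139, minus strand). It stood at 5759, 10290 and 4016 CPM in all members against 3054, 2777 and 4675 CPM in macrophages, so the classes overlapped, and the difference of 1.15 ± 0.42 did not pass (adjusted p = 0.0709). In the restricted members Il1b stood at 12550, 13910 and 8237 CPM, higher by 2.26 ± 0.34 (adjusted p = 0.000106), with a UMI in 158 of 159 cells. Neutrophils held 5.92, 8.04 and 3.01% of all Il1b UMIs. Il1a was higher than in macrophages by 1.36 ± 0.31 (adjusted p = 0.01), and by 1.21 with an adjusted p of 0.113 without library 1. For the restricted members Il1a was higher by 2.97 ± 0.25 (adjusted p = 1.73e-07), and 57.1% of its UMIs there lay in the 2 highest cells of each library.

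Csf1, the growth factor of monocytes and macrophages (chr3:107741048-107760469, minus strand), stood at 137, 169 and 84.1 CPM in neutrophils, 8.29, 15.3 and 7.13 CPM in monocytes and 8.73, 18.0 and 6.51 CPM in macrophages. It was above both classes in every library, by 3.77 ± 0.24 over macrophages (adjusted p = 1.39e-05) and 4.54 ± 0.31 in the restricted members (adjusted p = 1.49e-08). Among the restricted members 59 of 159 cells held a Csf1 UMI. The restricted members, which were taken for low collagen RNA, stood at 132, 213 and 155 CPM, and the part of RNA from other cells in Csf1 was not tested. Il6 was called higher in both sets of members, but its 104 UMIs in the restricted members came from 17 cells, with 89.4% in the 2 highest cells of each library. Tnf stood at 242, 926 and 167 CPM in all members and 554, 1419 and 548 CPM in the restricted members, and its difference from macrophages was -0.63 ± 0.33 (adjusted p = 0.192) and 0.81 ± 0.27 (adjusted p = 0.0295). The second did not pass when any 1 of the 3 libraries was left out (adjusted p = 0.0752, 0.105 and 0.0803).

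Other ligands were lower in neutrophils. Ccl9, a chemokine of myeloid cells, stood at 172, 116 and 117 CPM against 1156, 1156 and 1132 CPM in macrophages, a difference of -2.94 ± 0.23 (adjusted p = 3.71e-05). Il10, an anti-inflammatory cytokine, stood at 3.91, 29.9 and 12 CPM against 89.8, 321 and 155 CPM. Ifnb1, which encodes interferon beta, stood at 0, 1.99 and 1.5 CPM in neutrophils, 89.5, 274 and 9.11 CPM in monocytes and 48.6, 275 and 21.6 CPM in macrophages. Ccl2, the ligand of CCR2, did not differ beyond the spread over all members (0.10 ± 0.46, adjusted p = 0.912), and was lower in the restricted members by -1.12 ± 0.32 (adjusted p = 0.0155).

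**Figure D4:**
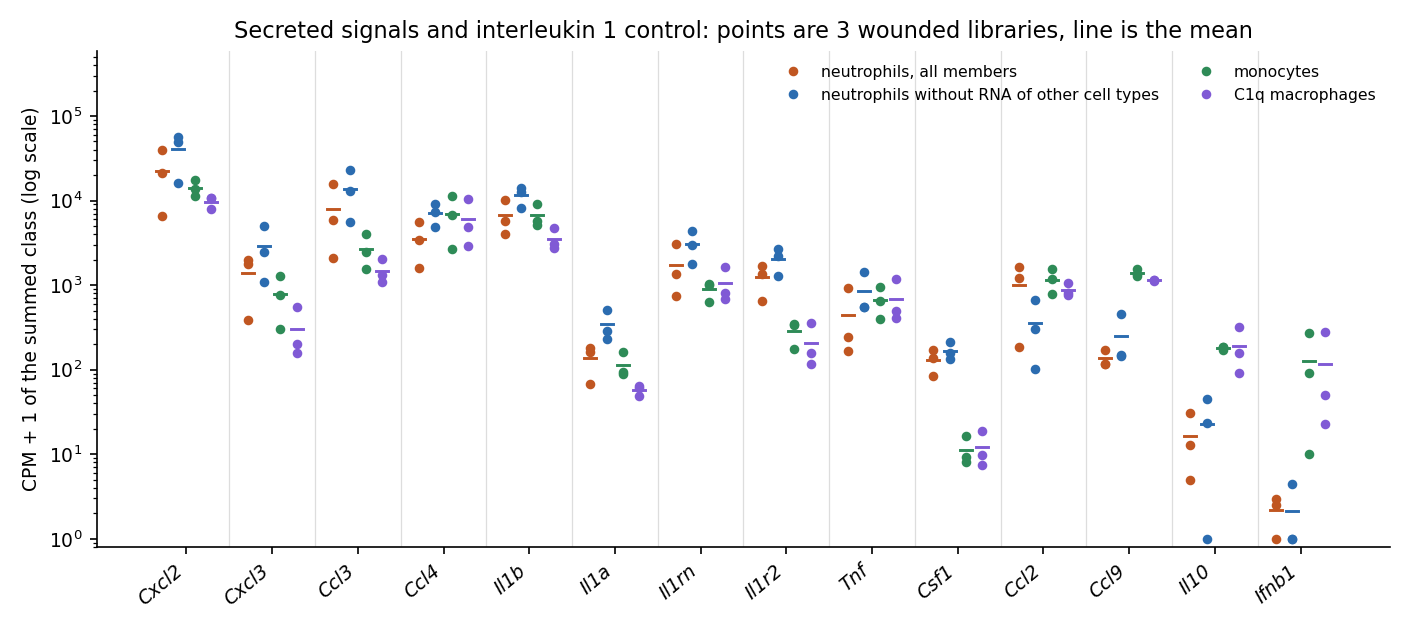
CPM + 1 (logarithmic axis) of cytokine, chemokine and interleukin 1 control genes, with 1 point for each wounded library and a line at their mean, for all neutrophils, restricted members, monocytes and C1q macrophages. Cxcl2 in all members lies at 21450, 39700 and 6483 CPM and in restricted members at 48830, 57040 and 16190 CPM, with library 3 lowest in both.

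Of 9 tested genes that control interleukin 1, 4 were higher and 1 lower than in macrophages in all members, and 6 higher and 1 lower in the restricted members. Against monocytes 4 were higher and 2 lower in all members. Il1r2, the decoy receptor that binds interleukin 1 without signalling, stood at 1364, 1704 and 643 CPM against 355, 115 and 155 CPM in macrophages, higher by 2.89 ± 0.52 (adjusted p = 0.00293). Il1rap, the shared receptor chain, was higher by 3.46 ± 0.33 (adjusted p = 9.01e-05). Casp4, an inflammatory caspase, was higher by 1.76 ± 0.28 (adjusted p = 0.00156). Il1rn, the receptor antagonist, stood at 1371, 3054 and 748 CPM against 677, 1657 and 808 CPM, a difference that did not pass (0.88 ± 0.38, adjusted p = 0.124). Within the restricted members Il1rn was higher by 2.07 ± 0.31 (adjusted p = 8.57e-05), and Nlrp3, the inflammasome sensor, by 2.52 ± 0.33 (adjusted p = 2.43e-05). Pycard, the inflammasome adaptor, was the 1 member lower in both sets.

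Receptors for chemoattractants went in both directions. Of 11 tested, 5 were higher (Fpr1, Fpr2, Ltb4r1, Ccr1 and Ptafr) and 4 lower, among them Ccr2, Cx3cr1 and Cxcr4, than in macrophages. In the restricted members 6 were higher and 3 lower, and Cxcr4 was not among these. Against monocytes 2 (Fpr1 and Fpr2) were higher and 5 lower, with Ltb4r1 and Cxcr4 among the lower. For the restricted members the counts against monocytes were 5 higher and 3 lower. Fpr1, a receptor for formylated bacterial peptides, stood at 270, 301 and 147 CPM in neutrophils against 9.95, 3.82 and 7.53 CPM in monocytes. It was higher than in monocytes by 5.09 ± 0.43 (adjusted p = 8.71e-05), and its relative Fpr2 by 2.34 ± 0.38 (adjusted p = 0.00242). Ccr2, the receptor that brings monocytes out of the marrow, stood at 19.5, 45.8 and 33.0 CPM against 275, 247 and 180 CPM in monocytes. Cx3cr1 had no UMI in the restricted members and was at least 6.61-fold lower than in macrophages there.

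Receptors for microbes and antibodies leaned upwards, with 6 of 14 tested higher and 1 lower than in macrophages, and 11 and 1 in the restricted members. Against monocytes 4 were higher and 2 lower, and 10 and 1 in the restricted members. Trem1, which amplifies inflammatory signals, stood at 356, 554 and 304 CPM against 26.5, 32.5 and 53.1 CPM in monocytes and 7.48, 13.0 and 14.5 CPM in macrophages. It was above both classes in every library, by 5.28 ± 0.41 over macrophages (adjusted p = 3.51e-05). Clec4d, a C-type lectin, was higher by 2.16 ± 0.41 (adjusted p = 0.00363), with an adjusted p of 0.0594 without library 1. Cd14, the lipopolysaccharide co-receptor, was higher by 1.26 ± 0.38 (adjusted p = 0.034), which did not pass without library 1 or library 2 (adjusted p = 0.218 and 0.1). For the restricted members Cd14 was higher by 2.49 ± 0.29 (adjusted p = 6.06e-06). Fcgr2b, the inhibitory antibody receptor, stood at 7.81, 11.9 and 39.1 CPM against 482, 291 and 385 CPM in macrophages, and was the 1 gene lower than there.

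Of 8 adhesion and migration genes tested, 4 were higher, among them Cd9, Itgal and Icam1, and 1 lower (Itgam) than in macrophages. Among the restricted members 6 were higher and none lower, with Selplg and Itgb2 added, and Itgam did not pass (0.16 ± 0.28, adjusted p = 0.696). The shares over all genes were 16% higher and 10.2% lower, and 15.8% and 15.7% in the restricted members. Cd9, a tetraspanin, stood at 1657, 1275 and 829 CPM, higher than in macrophages by 2.66 ± 0.32 (adjusted p = 0.000313).

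NADPH oxidase genes moved in both directions. Of 8 tested, Ncf1 and Rac2 were higher than in macrophages, and Cybb, Cyba and Hvcn1 lower. Among the restricted members 4 were higher, among them Ncf1, Ncf4 and Rac2, and 1, Cybb, was lower. Over all genes 16% were higher and 10.2% lower, and 15.8% and 15.7% in the restricted members. Ncf1, a cytosolic subunit, stood at 113, 428 and 140 CPM against 72.3, 73.0 and 73.1 CPM, higher in every library by 1.71 ± 0.46 (adjusted p = 0.0206). Cybb, the catalytic membrane subunit, stood at 39.1, 85.7 and 28.5 CPM against 238, 421 and 217 CPM, lower in every library with a difference of -2.37 ± 0.28 (adjusted p = 0.000313). Both kept their direction in the restricted members, at 2.95 ± 0.37 and -1.40 ± 0.30 (adjusted p = 1.48e-05 and 0.00221). Compared with monocytes, Ncf1 alone was higher and Cybb and Cyba lower over all members. In the restricted members Ncf1 and Rac2 were higher than in monocytes and Cybb lower.

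Survival and death genes included the death receptor Fas, at 254, 331 and 132 CPM in neutrophils against 11.2, 22.0 and 25.4 CPM in macrophages. Fas was higher by 3.76 ± 0.46 (adjusted p = 0.000359) and by 5.0 ± 0.34 in the restricted members (adjusted p = 1.8e-08). In all, 3 of 13 tested were higher and 2 lower than in macrophages, and 7 and 2 in the restricted members. Over all genes 16% and 10.2% were, and 15.8% and 15.7% in the restricted members, so the lower calls there were near the share over all genes. Bcl2a1b, an A1-type inhibitor of apoptosis, was higher in the restricted members by 1.52 ± 0.31 (adjusted p = 0.00126), and in all members by 0.36 ± 0.39 (adjusted p = 0.548). Bcl2a1a and Bcl2a1d are near copies of it, so counts may be split among the 3. Bax, which promotes apoptosis, was lower by -1.03 ± 0.22 (adjusted p = 0.00672), with an adjusted p of 0.0794 without library 1. Of the 13 genes 1 was higher and 2 lower than in monocytes, and 5 and none in the restricted members.

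Energy genes split by pathway in the restricted members when set against macrophages. Of 18 genes of oxidative phosphorylation, all tested, 9 were lower than in macrophages and none higher, with a median log2 fold change of -0.74, beside -0.29 over all genes. In all members 1 of 18, Cox5a, was lower. Of the genes of glycolysis and hypoxia 7 of 18 were higher and 1 lower in the restricted members, and 2 of 17 higher and 1 lower in all members. Against monocytes the restricted members had 3 of these 18 higher and 1 lower, where 12.7% of all genes were higher. All members had 1 of 17 higher and 3 lower than monocytes. Of the oxidative phosphorylation genes 10 of 18 were lower than in monocytes in the restricted members, and none in all members. Slc2a3, a glucose transporter, stood at 46.9, 49.8 and 28.5 CPM against 0, 2.00 and 2.07 CPM in macrophages. It was higher by 4.57 ± 0.51 (adjusted p = 0.000231). Ndufb8, a subunit of respiratory complex I, stood at 36.1, 40.6 and 74.0 CPM in the restricted members against 256, 197 and 252 CPM, a difference of -1.66 ± 0.32 (adjusted p = 0.000862). In all members it stood at 219, 81.7 and 156 CPM and did not pass (adjusted p = 0.0911).

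Genes of antigen presentation and of the uptake of dead cells were low in neutrophils. All 7 tested MHC class II presentation genes were lower than in macrophages and than in monocytes. Because MHC class II RNA was used for the restriction, only Ctss, H2-DMa and H2-DMb1 of the tested genes were not themselves part of it. All 3 were lower in the restricted members. Members rich in MHC class II RNA had been left out there, so these 3 are no separate support. Ctss, the protease that trims the invariant chain, stood at 133, 163 and 352 CPM against 3027, 1917 and 2625 CPM in macrophages. It was lower in every library by -3.39 ± 0.32 (adjusted p = 8.6e-05).

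Of 13 efferocytosis and lysosome genes tested, 10 were lower and none higher than in macrophages, and in the restricted members 11 were lower and 1, Ctsd, higher. Trem2, a receptor for lipids and apoptotic cells, stood at 0, 5.98 and 24.0 CPM against 335, 357 and 510 CPM. Apoe, the lipid carrier, stood at 871, 211 and 1653 CPM against 12250, 6355 and 12810 CPM, and 85.3% of its UMIs in the restricted members lay in the 2 highest cells of each library. Ctsd, a lysosomal aspartic protease, stood at 1036, 1026 and 1058 CPM in the restricted members, higher than the 591, 578 and 800 CPM of macrophages by 1.17 ± 0.26 (adjusted p = 0.00245).

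The genes furthest below macrophages were Pf4, Ccl12, Ifnb1, Cbr2, Folr2, Fcrls, Ms4a7, Aif1, C3ar1, Trem2, Mrc1 and Arg1. Pf4, a platelet-type chemokine that macrophages also make, stood at 3.91, 9.96 and 93.1 CPM against 2611, 2149 and 3681 CPM, a difference of -6.59 ± 0.58 (adjusted p = 6.9e-05). Aif1, a marker of macrophage lineage cells, stood at 0, 1.99 and 72.1 CPM against 977, 835 and 1135 CPM. For these and most others library 3 held the highest neutrophil level. Folr2, a folate receptor of resident macrophages, had no UMI in the restricted members and was at least 26.1-fold lower there. The genes furthest below monocytes included Ms4a6b, Ms4a6c and Ms4a6d, of which Ms4a6d stood at 23.4, 13.9 and 25.5 CPM against 461, 300 and 413 CPM. These 3 are related genes whose counts may be shared.

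Of 15 tested repair factors and proteases, 1 was higher and 6 lower than in macrophages, and 3 and 6 in the restricted members. The shares over all genes were 16% and 10.2%, and 15.8% and 15.7% in the restricted members. Arg1, the arginase of repair-type macrophages, stood at 0, 0 and 13.5 CPM against 86.0, 133 and 171 CPM, and the restricted members held 8 Arg1 UMIs in 2 cells. Vegfa stood at 11.7, 61.8 and 9.01 CPM against 115, 173 and 80.5 CPM, a difference of -2.07 ± 0.39 (adjusted p = 0.00353) that did not pass in the restricted members (-0.92 ± 0.36, adjusted p = 0.0644). Spp1, which encodes osteopontin, did not differ over all members (0.88 ± 0.40, adjusted p = 0.135). Within the restricted members it was higher by 2.45 ± 0.34 (adjusted p = 4.52e-05), with 62.5% of its UMIs in the 2 highest cells of each library.

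Of 16 tested interferon-response genes 4 were higher and 3 lower than in macrophages, where 16% and 10.2% of all genes were. In the restricted members 5 were higher and 2 lower, where 15.8% and 15.7% of all genes were, so the lower calls were no more frequent than over all genes. Against monocytes 3 were higher and 5 lower, and 4 and 3 in the restricted members. Slfn4, a schlafen gene, stood at 191, 233 and 57.1 CPM against 18.7, 13.0 and 10.1 CPM in macrophages, higher by 3.48 ± 0.35 (adjusted p = 0.00012). Ifitm1, a membrane protein that limits virus entry, stood at 864, 1333 and 1342 CPM against 102, 113 and 271 CPM, higher by 3.20 ± 0.36 (adjusted p = 0.000224). Oasl1 stood at 31.3, 45.8 and 18.0 CPM against 73.6, 272 and 87.3 CPM, lower with a difference of -1.95 ± 0.28 (adjusted p = 0.00088).

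Among transcription factors 1 of 14 tested was higher and 4 lower than in macrophages, and 6 and 5 in the restricted members. The shares over all genes were 16% and 10.2%, and 15.8% and 15.7% in the restricted members. Cebpb, a factor of emergency granulopoiesis, stood at 7334, 7016 and 126 CPM in the restricted members against 1760, 1347 and 175 CPM in macrophages. The restricted members were above macrophages in libraries 1 and 2 and below them in library 3. The difference of 1.97 ± 0.46 (adjusted p = 0.00377) did not pass without library 1 or library 2 (adjusted p = 0.0752 and 0.0565). Over all kept cells Cebpb was also lowest in library 3, at 56.8 CPM, against 675 and 685 CPM in the other wounded libraries and 298 and 435 CPM in un-wounded skin. What sets that library apart for Cebpb was not tested.

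**Figure D5:**
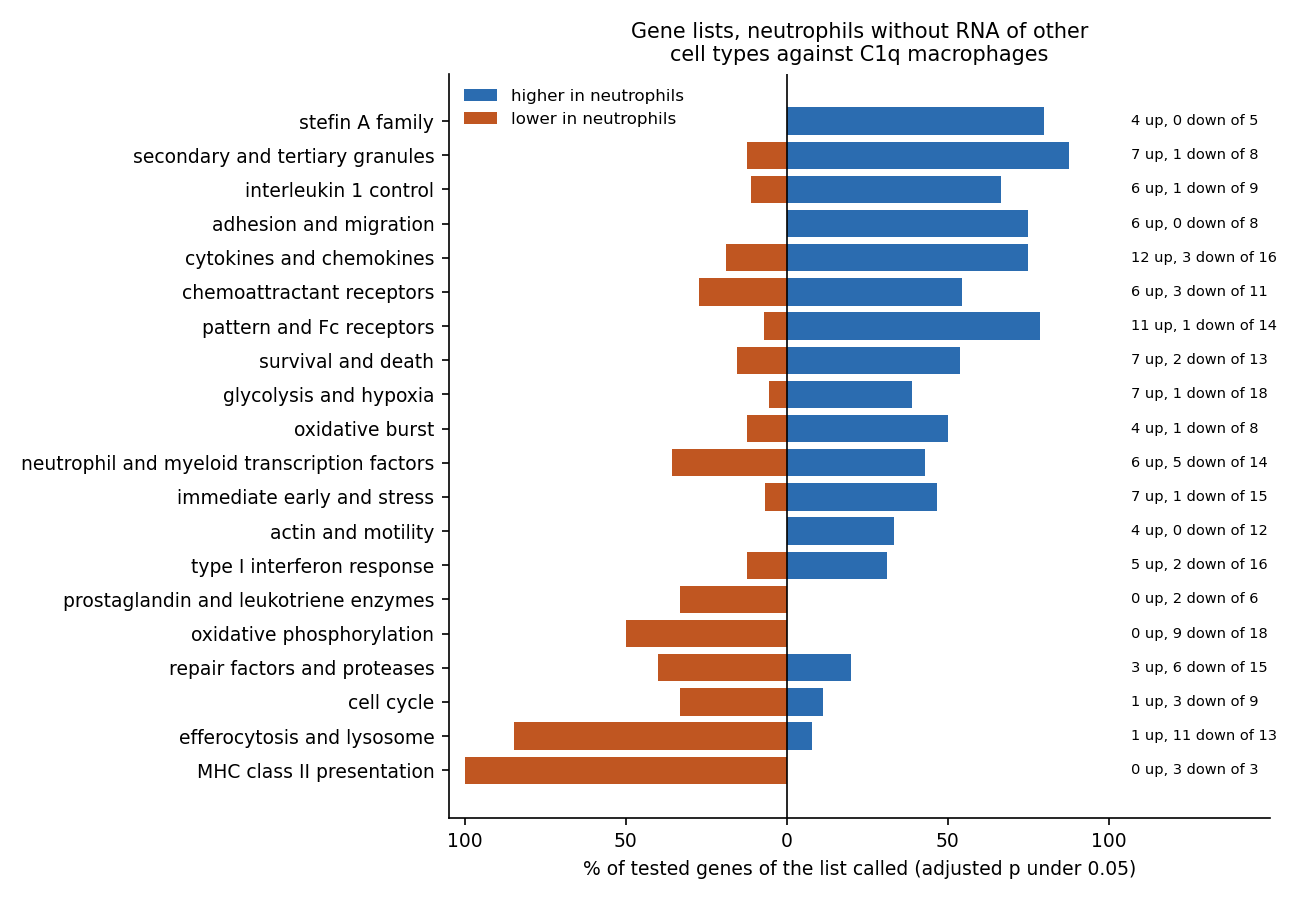
Percentage of the tested genes of each list called higher (bars to the right) or lower (bars to the left) in the restricted members than in C1q macrophages, with the counts at the right edge. All 4 calls of the stefin A list and 7 of 8 calls of the granule list are higher, and all 3 MHC class II calls and 11 of 12 efferocytosis calls are lower.

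Neutrophils also varied among themselves along the S100 level, which was used to choose them. Members of each library were divided at the library's median, which gives ranges and not types. Because the division uses values that chose the members, its counts and differences are a description and support nothing further. Of 1942 genes tested 852 (43.9%) passed the threshold of the fit between the ranges, 436 higher (22.5%) and 416 lower (21.4%) in S100-high members. RNA of other cell types moved with this division, since 17 of 23, 28 of 66 and 33 of 38 of the S100-low members held it, against 4 of 22, 0 of 65 and 10 of 37 of the S100-high ones. The genes furthest lower in S100-high members included Cxcl12 and Sfrp2, which fibroblasts are known to express. The part of that RNA in the 852 calls was not tested beyond the restriction below. Without the library as a block 4 genes were called, and without library 1 none was called by edgeR, with 906 at an unadjusted p under 0.05. With no TMM scaling the division was 243 higher and 649 lower, as the median over all genes moved from -0.20 to -0.68.

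In the restricted members, divided again at their own medians of 616, 386 and 1455 per 10000, 111 of 721 genes (15.4%) passed the threshold, 21 higher (2.91%) and 90 lower (12.5%). Lcn2 stood at 1268, 1174 and 5168 CPM in S100-high and 355, 1017 and 821 CPM in S100-low restricted members, higher by 1.74 ± 0.42. Mrgpra2b, at 680, 446 and 612 CPM against 78.9, 321 and 241 CPM, was higher by 1.60 ± 0.48. Wfdc17 was higher by 1.23 ± 0.38. S100a4, which encodes another S100 protein, went the other way, at 0, 68.7 and 19.1 CPM against 316, 368 and 1364 CPM, a difference of -3.60 ± 0.61. Of the 195 S100a4 UMIs in the restricted members 74.4% lay in the 2 highest cells of each library, and 34 of 159 cells held any. Without the library as a block none of these 111 passed by edgeR, with 145 genes at an unadjusted p under 0.05, and leaving out each library gave 2 to 242 calls.

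Cell by cell, the summed granule genes made up a median of 86.6, 97.0 and 148 per 10000 UMIs in the restricted members of libraries 1, 2 and 3. Their Spearman correlation with the S100 level over cells of the same library was 0.48 (n = 24), 0.15 (n = 103) and 0.54 (n = 32). The summed cytokine and chemokine genes made up 788, 973 and 303 per 10000, with correlations of 0.24, 0.05 and -0.02. In all members the cytokine correlations were 0.63, 0.35 and 0.44. Cells of a library share its capture and sequencing, and both measures also fell with depth in most libraries, so these are descriptions with no test.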

How the data were processed

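The values deposited by the authors are UMI counts for each gene in each barcode. Per the submitters' processing notes the tool was Cell Ranger 1.3.1 and the build mm10. The library kit is 10x Genomics 3' chemistry, per the labels' protocols. How barcodes were filtered before deposit is not given in the sources used here.

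Barcodes were kept from 200 genes upwards and up to 10% mitochondrial UMIs, and classes were taken by gene rules in Python 3.11.15 with scanpy 1.11.5. Counts were summed per library and class and fitted with edgeR 4.0.16 in R 4.3.3 (filterByExpr, TMM, quasi-likelihood F-test, library as a block since the classes of a library come from the same cell suspension). Genes are called at a Benjamini-Hochberg adjusted p under 0.05. All CPM are plain CPM of these sums, while log2 fold changes carry TMM scaling. Scrublet's own threshold called 1 to 36 cells per library and so did not work. All cells were kept, and removal of the highest scores, at 0.8% per 1000 barcodes, is an alternative. The members, lists and tests were chosen with earlier results of these data known. Genes were named if adjusted p was under 0.05, the absolute log2 fold change at least 1, mean CPM at least 100 and the classes did not overlap, taking the 12 largest each way (8 for S100 ranges). In addition the 4 most abundant members of each list and members called in a contrast could be named, and mitochondrial, ribosomal, Gm-number and Rik genes only through a list. Counts were simulated with changes set in 200 of the more abundant genes and no RNA of other cell types mixed in, so the rates do not cover scarce genes. Changes of 4-fold were recovered in 98% of such genes against macrophages, 97% against monocytes and 88.9% between S100 ranges. For 2-fold changes these were 46, 38 and 16.7%, with 11 of 155, 6 of 141 and 4 of 99 calls false. Libraries of a class differed beyond sampling noise and each was counted as 1 sample, which does not show whether they are technical repeats. Positions are from a GRCm38 annotation (375 of 375 named or listed genes matched by ID). Alternatives were DESeq2 1.42.0, no TMM, no filter, no block, other thresholds for cells and S100, doublets or shared barcodes left out, the 2 highest cells of each gene left out, only the outer parts of the S100 range, and each library left out. The restriction to 159 members, alone or with a library or the block left out, was added after the data were seen. Values of some list members are not reported here.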

Additional observations from a re-analysis of the deposited data

How the results depend on the processing

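Counts of called genes against macrophages (1634) and monocytes (1339) stayed within 1.5 times under DESeq2 (1529 and 1256), no TMM (1670 and 1345), 5% mitochondrial UMIs, 500 genes, shared barcodes left out, the 2 highest cells of each gene left out, and a minimum S100 level of 100 (1579 and 1120). Without a filter on low counts they were 2619 and 2184, and with doublets removed 1122 and 863. Leaving out each library gave 1032 to 1491 and 654 to 1343, and among restricted members 1064 to 1525 and 822 to 1260. For the S100 ranges (852) leaving out each library gave 0 to 808, and in restricted members (111) 2 to 242, where 0 is without library 1. No TMM moved the median log2 fold change over all genes from 0.01 to -0.14 against macrophages, from 0.02 to -0.07 against monocytes and from -0.20 to -0.68 between S100 ranges.

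Without the library as a replicate block the counts were 1284 and 951, and 1556 and 1234 in restricted members. For the S100 ranges they were 4 (666 at an unadjusted p under 0.05), and 0 in restricted members, so those calls rest on pairing within libraries. Replicate numbers of wounded and un-wounded libraries share only a number and were not paired.

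Signs were compared only for a list of genes chosen for the text, not for all genes tested. Of that list, these genes changed sign in restricted members and passed in at least 1 of the sets of members. The ranges are with each library left out. Of them Ccl2, Tnf and Ccl6 had not passed in all members. Against macrophages Ccl4 went to 0.87 (0.72 without the block), from -0.70 to -0.46 in all members and from 0.71 to 1.10 in restricted members. Tnf went from -0.63 to 0.81, from -1.12 to -0.35 in all members, where -1.12 without library 2 passed (adjusted p = 0.00923), and from 0.59 to 0.93 in restricted members. Ccl2 went to -1.12, from -0.32 to 0.63 in all members and from -1.55 to -0.77 in restricted members. Col1a1, part of the restriction, went to -1.04 (-1.04 without the block), from 2.08 to 2.85 in all members and from -1.55 to -0.58 in restricted members. Against monocytes Ccl4 went to 0.64 (0.46 without the block), from -0.87 to -0.75 and from 0.40 to 0.86. Ccl6 went to 1.22 (1.20), from -0.75 to 0.48 and from 0.92 to 1.63, and Col1a1 to -1.19 (-1.19), from 1.89 to 2.96 and from -1.41 to -1.13. The fall in collagen RNA follows from the restriction, and the cause of the other changes was not tested.

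The neutrophil share of wounded skin ranged from 1.12 to 2.34% over all alternatives run, including 1.99% at an S100 minimum of 25. The exact p was 0.2 or, with a library left out, 0.33 or 0.5, and none of these designs allows a p under 0.05. The mean difference in genes per cell from macrophages was -53.3 at 1000 UMIs, -44.5 at 800, -78.5 with doublets removed, -124.33 in restricted members and -252.17 without thinning, where neutrophils were shallower. Leaving out each library gave -69.5 to -26.0. With 24 to 103 restricted cells per library and medians of 2625 to 3516 UMIs, genes at a few CPM rest on few molecules.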

Other observations

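Of 12 actin and motility genes, all tested, 1 was higher than in macrophages, and 4 in the restricted members (Lsp1, Lcp1, Hcls1 and Arpc5), with none lower in either. Over all genes 16% were higher, and 15.8% in the restricted members. Against monocytes none was higher and 2 (Coro1a and Arpc2) were lower, and in the restricted members Lcp1 alone was higher. Of 15 immediate early and stress genes 5 were higher and none lower than in macrophages, and 7 and 1 in the restricted members. Than in monocytes, 3 were higher and 2 lower, and 4 and 2 in the restricted members. Egr1, an immediate early transcription factor, stood at 566, 428 and 419 CPM in all members, at 578, 203 and 170 CPM in restricted members and at 248, 228 and 123 CPM in macrophages. Nfkbia, the NF-kappaB inhibitor that NF-kappaB itself induces, stood at 5203, 10950 and 6239 CPM in restricted members against 1581, 2457 and 2605 CPM in macrophages. Of 8 tested genes of prostaglandin and leukotriene synthesis none was higher and 1, Ltc4s, lower than in macrophages, and in the restricted members none of 6 was higher and 2 were lower. Over all genes 10.2% were lower, and 15.7% in the restricted members, so the single call in all members was near that share.

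Of 11 tested cell cycle genes 1, Ccnb2, was higher than in macrophages in all members. In the restricted members 1 of 9, Hmgb2, was higher and 3 (Tubb5, Stmn1 and Mcm5) lower. Hmgb2 encodes a chromatin protein that is not restricted to dividing cells, and it stood at 458, 491 and 585 CPM there against 248, 265 and 219 CPM. Higher calls among cell cycle genes were no more frequent than over all genes, where 16% were higher, and 15.8% in the restricted members.

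Some large values came from very few cells. Gzmb, which encodes granzyme B, was among the genes furthest above monocytes in the restricted members, and 98.7% of its 157 UMIs lay in the 2 highest cells of each library, out of 6 cells with any. Ccl21a, a lymphatic endothelial chemokine, stood at 3.91, 462 and 643 CPM in all members and at 0, 6.78 and 0 CPM in restricted members.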
